A study of Mus musculus with 72 samples.

Results

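The genes described here are 10 transcripts of cytotoxic lymphocytes: perforin (Prf1), the granzymes Gzma, Gzmb and Gzmk, the granule protein Nkg7, the transcription factors Eomes and Tbx21, and the receptors Klrk1, Klrd1 and Ncr1. They form a named list that was not cut by a measured value, but it was chosen with earlier results of these data known. They are 10 of 35149 genes in the acute input table and of 30901 in the acute polysomal table. Each table of relapse lines holds 35556 genes. The study profiled Eμ-Myc B lymphoma, a mouse tumour in which an immunoglobulin heavy chain enhancer drives Myc, here carrying an MSCV Gfp vector. In the acute experiment, lymphoma of clone #4242 grew in C57BL/6 mice, which keep their own immune cells. On day 10 the mice were treated for 2 h with vehicle, with CX5461 at 35 mg/kg (an inhibitor of RNA polymerase I, which transcribes ribosomal RNA), with everolimus at 5 mg/kg (an inhibitor of the growth kinase complex mTORC1), or with both drugs at these doses, called the combination. Each group held 6 mice, and each mouse gave cytoplasmic (input) RNA and polysomal RNA, the latter from sucrose gradient fractions with 4 or more ribosomes. In the relapse experiment, lines of clone #107 were grown for 2 to 3 passages from lymph nodes of mice that relapsed after vehicle (called naive), CX5461, everolimus or both, with 3 lines per group and both kinds of RNA. Each experiment rests on 1 clone, and the drug groups of an experiment were all compared with the same vehicle mice or naive lines.

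Natural killer (NK) cells and cytotoxic T cells kill by releasing granules at the contact with a target cell. Perforin opens the target membrane, and granzymes are proteases that enter and start cell death. The T-box factors Eomes and T-bet (Tbx21), together with Runx factors, direct this program, and receptors such as NKG2D (Klrk1), CD94 (Klrd1) and NKp46 (Ncr1) sense ligands on the target.

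The start sites of these genes were read for the letters bound by those factors, because these factors direct the program. RefSeq promoter windows of 250 bases before the start site (GRCm38.p6) were found for 9 of the 10 members, Klrd1 having no entry in the table. The T-box motif was searched as AGGTGT and a Runx site as TGTGGT, on both strands, and the letters of the pair can overlap. Prf1, Nkg7 and Gzma held both kinds, against 2.13% of 32851 promoters of this length. Gzmb, Klrk1 and Ncr1 held a Runx site alone, Gzmk a T-box motif alone, and Eomes and Tbx21 neither. A T-box motif stood in 11.8% of all promoters, a Runx site in 14% and at least 1 kind in 23.7%. A match describes letters and does not show that a factor binds there. The windows of Prf1 (chr10:61297586-61297835, plus strand) and Gzma (chr13:113100982-113101231, minus strand) are shown because these members held both kinds and changed in the input comparisons that follow; each reads 5′ to 3′ and the capitals mark the matches on either strand.
Prf1: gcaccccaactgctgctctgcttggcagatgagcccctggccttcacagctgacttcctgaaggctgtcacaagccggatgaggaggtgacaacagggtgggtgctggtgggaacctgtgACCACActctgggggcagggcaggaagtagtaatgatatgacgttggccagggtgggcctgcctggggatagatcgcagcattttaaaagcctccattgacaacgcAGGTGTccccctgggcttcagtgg
Gzma: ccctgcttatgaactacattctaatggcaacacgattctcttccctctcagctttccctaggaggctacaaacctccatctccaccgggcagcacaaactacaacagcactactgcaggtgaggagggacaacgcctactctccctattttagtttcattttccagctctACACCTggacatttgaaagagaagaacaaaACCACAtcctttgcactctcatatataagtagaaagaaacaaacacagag
In Prf1 the T-box motif lies 24 bases before the start site and the Runx site 130 bases before it. In Gzma the order is reversed, with the Runx site at 50 and the T-box motif at 80 bases before the start. These distances are from the RefSeq start site. The sequence after that site was found in a GENCODE transcript of the gene for Gzma. It was not found for Prf1, nor for Eomes, Gzmb and Gzmk.

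In the GENCODE models of GRCm38, Prf1 lies at chr10:61297833-61304680 and Nkg7 at chr7:43437073-43438249. Gzma (chr13:113093825-113100981) and Gzmk (chr13:113171608-113225908) share a chromosome, and Gzmb lies at chr14:56258838-56262260. Klrd1 (chr6:129591782-129598775) and Klrk1 (chr6:129610323-129623864) lie close together on chromosome 6, and Ncr1 lies at chr7:4337724-4345164. Tbx21 lies at chr11:97098071-97115331 and Eomes at chr9:118478212-118486132. Eomes overlaps the antisense gene Gm33460 by 574 bases and Gzmk overlaps Esm1 on the other strand by 8440 bases; whether counting used the strand is not stated, so reads of such pairs cannot be told apart.

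Total counts per library ran from 17079034 to 24702803 in acute input libraries, 11528341 to 20854565 in acute polysomal, 14566897 to 26016328 in relapse input and 15528791 to 30383886 in relapse polysomal libraries. Levels are given in CPM, the counts of a gene scaled to a common library size. Prf1 had 35 to 47 reads in vehicle input libraries and Eomes 7 to 15, so counting error is large for these genes. The labels do not say that nodes were sorted, and host markers were present in the node input: Cd4 at 15.9 to 33.3 CPM, Cd3e at 1.89 to 6.66, Cd8a at 1.44 to 5.32, the macrophage gene Csf1r at 55.3 to 77.9 and the neutrophil gene S100a8 at 4.44 to 24.03. In 3 input libraries (CX5461 mice 4 and 6, everolimus mouse 2) the transcripts Gm26870 and Gm10800 took 14.98% to 23.3% of counts, and in 4 polysomal libraries (vehicle mice 2, 5 and 6, CX5461 mouse 6) Lars2 and Yam1 took 10.1% to 26.2%. Input libraries of everolimus mice 1 and 3 differed by 1.32 times the sampling noise, less than any other pair (next 2.10), and results were recomputed without mouse 3. Among the relapse lines, the input of naive line 38 stood apart by its reads of host lymphocyte genes. Values without these libraries are given where a call changes.

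In vehicle input the members were low. Levels were divided by kilobases of exon so that genes can be compared. The length joins the exons of all annotated transcripts of a gene, so the order also depends on the annotation. Klrk1, for example, was divided by 7183 bases and Gzmb by 1436. Nkg7 was highest at 2.29 ± 0.492 CPM per kb (mean ± SD, n = 6), followed by Gzma at 1.27 ± 0.498. Klrd1 at 0.837 ± 0.0658 and Prf1 at 0.758 ± 0.105 came next, then Gzmb at 0.545 ± 0.0735 and Ncr1 at 0.310 ± 0.0866. Tbx21 at 0.225 ± 0.0546, Klrk1 at 0.157 ± 0.0273 and Eomes at 0.151 ± 0.0355 were lower, and Gzmk was last at 0.0665 ± 0.0684 CPM per kb. Neighbours in this order stood apart by more than their SDs for Nkg7 and Gzma, for Prf1 and Gzmb and for Gzmb and Ncr1; the other neighbours did not.

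**Figure D1:**
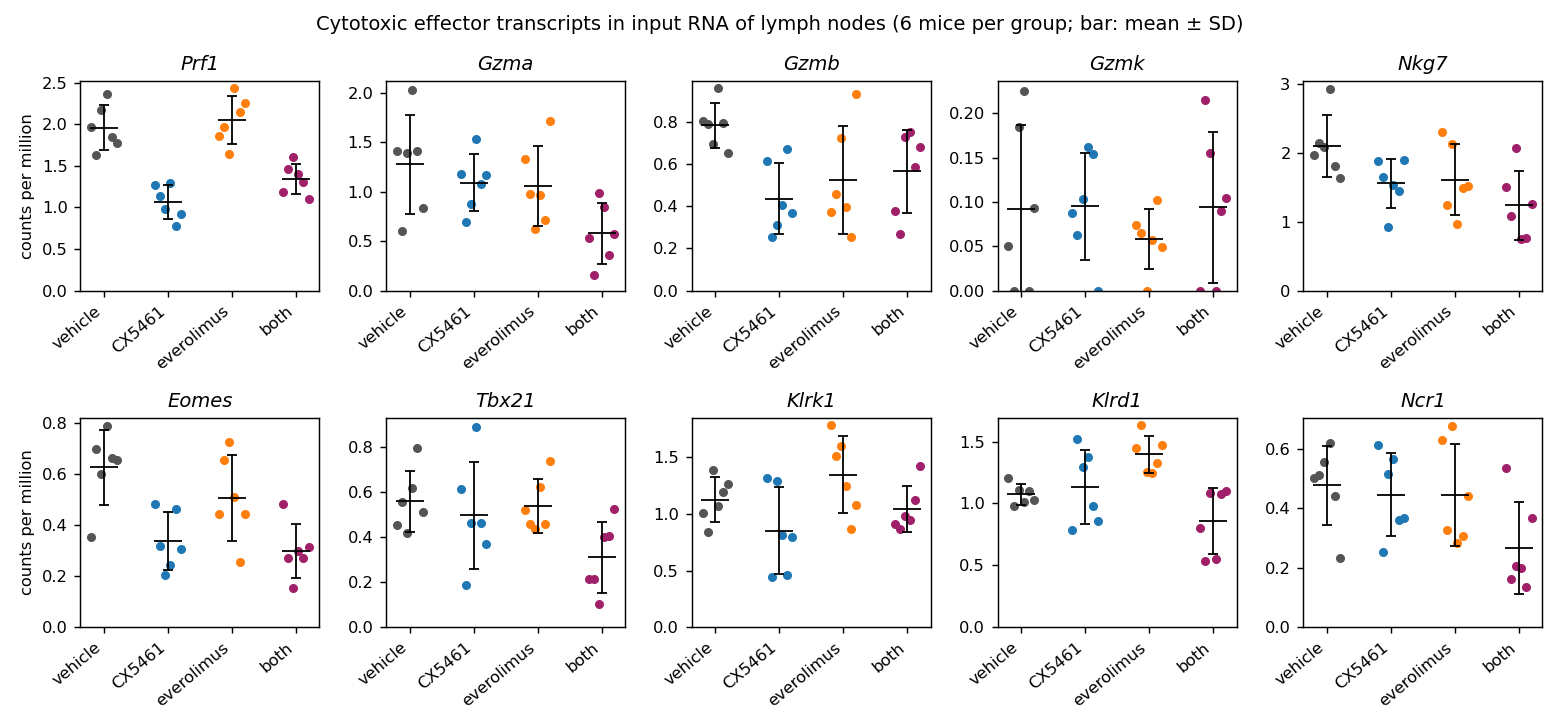
Input levels of the members in CPM for each mouse of the 4 acute groups, 6 points per group; the bar is the mean ± SD. Prf1 of CX5461 mice (0.772 to 1.29 CPM) lies wholly below that of vehicle mice (1.63 to 2.36 CPM).

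Perforin was lower in input RNA after CX5461 and after the combination, and was not called after everolimus. The lowest, median and highest Prf1 levels were 1.63, 1.91 and 2.36 CPM in vehicle mice, 0.772, 1.06 and 1.29 CPM with CX5461, 1.64, 2.05 and 2.44 CPM with everolimus and 1.10, 1.35 and 1.61 CPM with the combination. All mice given CX5461, alone or with everolimus, were below all vehicle mice, while the everolimus and vehicle ranges overlapped. Prf1 fell 1.84-fold with CX5461 (log2 fold change -0.88 ± 0.16, adjusted p = 0.0166, edgeR quasi-likelihood test adjusted over all genes) and 1.46-fold with the combination (-0.54 ± 0.15, adjusted p = 0.032). With everolimus its log2 difference was 0.07 ± 0.14, adjusted p = 0.872. Of the 9 members tested, Prf1 was the 1 called with CX5461, against 0.399% of all 16055 genes tested. The CX5461 call was lost without the Gm26870- and Gm10800-rich libraries (-0.90, adjusted p = 0.0738) and in a fit of the compared groups alone (adjusted p = 0.0519), and its size was -0.87 there. The combination call was lost with no count filter (adjusted p = 0.0921) and with the compared groups alone (0.0542).

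Of the other granule genes, granzyme A was also lower with the combination. Gzma, the most abundant granzyme here, was at 0.604, 1.40 and 2.03 CPM (lowest, median, highest) in vehicle mice, 0.696, 1.12 and 1.54 with CX5461, 0.628, 0.973 and 1.72 with everolimus and 0.162, 0.557 and 0.984 with the combination. The combination and vehicle ranges overlapped. Gzma fell 2.19-fold with the combination (-1.13 ± 0.33, adjusted p = 0.0393), a call lost with the compared groups alone (adjusted p = 0.0645). With CX5461 the log2 difference was -0.23 ± 0.31, adjusted p = 0.919. Gzmb was at 0.653, 0.792 and 0.957 CPM in vehicle mice, 0.253, 0.386 and 0.669 with CX5461, 0.255, 0.427 and 0.933 with everolimus and 0.270, 0.633 and 0.749 with the combination. Most drug-treated mice lay at the low end of the vehicle range or below it, and all groups overlapped the vehicle group. None of its differences passed: -0.80 ± 0.30, adjusted p = 0.343 for CX5461, -0.57 ± 0.29, adjusted p = 0.37 for everolimus and -0.46 ± 0.29, adjusted p = 0.278 for the combination. Gzmk had 0 to 4 reads per input library and was not tested. Nkg7, a membrane protein needed for granule release, was at 1.63, 2.02 and 2.93 CPM in vehicle mice, 0.929, 1.59 and 1.90 with CX5461, 0.963, 1.502 and 2.30 with everolimus and 0.749, 1.17 and 2.07 with the combination. Its combination difference stood at the threshold (-0.76 ± 0.24, adjusted p = 0.0529); it passed with DESeq2 (adjusted p = 0.029).

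Of the transcription factors, Eomes fell with the combination. It was at 0.352, 0.657 and 0.788 CPM in vehicle mice, 0.206, 0.311 and 0.481 with CX5461, 0.255, 0.477 and 0.724 with everolimus and 0.155, 0.285 and 0.482 with the combination, so the combination mice sat low and overlapped the lowest vehicle mouse. The combination lowered it 2.08-fold (-1.05 ± 0.29, adjusted p = 0.0282); with no count filter the adjusted p was 0.0702, and with the compared groups alone Eomes did not pass the count filter and had no test. CX5461 gave -0.85 ± 0.29, adjusted p = 0.246, and everolimus -0.31 ± 0.26, adjusted p = 0.601. Tbx21 was at 0.416, 0.535 and 0.793 CPM in vehicle mice, 0.190, 0.464 and 0.890 with CX5461, 0.435, 0.489 and 0.737 with everolimus and 0.104, 0.308 and 0.525 with the combination. Its combination difference was -0.83 ± 0.32, adjusted p = 0.0899, with overlapping groups.

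No receptor passed the test in input RNA. Klrk1 was at 0.836, 1.13 and 1.39 CPM in vehicle mice, 0.443, 0.803 and 1.31 with CX5461, 0.868, 1.38 and 1.78 with everolimus and 0.863, 0.967 and 1.42 with the combination. All 3 drug groups overlapped the vehicle group for Klrk1. Klrd1 was at 0.976, 1.06 and 1.21 CPM in vehicle mice, 0.787, 1.13 and 1.52 with CX5461, 1.25, 1.39 and 1.64 with everolimus and 0.539, 0.941 and 1.10 with the combination. All everolimus mice were above all vehicle and all combination mice for Klrd1, but its everolimus difference did not pass (0.38 ± 0.19, adjusted p = 0.368). Ncr1, a receptor used almost only by NK cells and innate lymphoid cells, was at 0.233, 0.507 and 0.619 CPM in vehicle mice, 0.253, 0.442 and 0.612 with CX5461, 0.283, 0.385 and 0.676 with everolimus and 0.135, 0.203 and 0.536 with the combination. The combination mice held the lowest Ncr1 median, and all groups overlapped. Its combination difference was -0.83 ± 0.34, adjusted p = 0.106.

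As a list, the input members leaned low with CX5461 and the combination. With CX5461, 8 of the 9 tested had estimates below 0, with a median log2 fold change of -0.38, beside 0.00 over all genes. With the combination all 9 tested were below 0, with a median of -0.76, and 3 (Prf1, Eomes and Gzma) were called lower, against 7.48% of all genes called in either direction and 4.17% called lower. This count was 1 with no count filter and 0 with the compared groups alone, where 6 members were tested. With everolimus edgeR called 0 of 9, against 0.106% of all genes, none had an unadjusted p under 0.05, and DESeq2 gave no member an adjusted p; the median was -0.06. In these bulk samples, fewer cells of a type and less RNA per cell cannot be told apart.

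**Figure D2:**
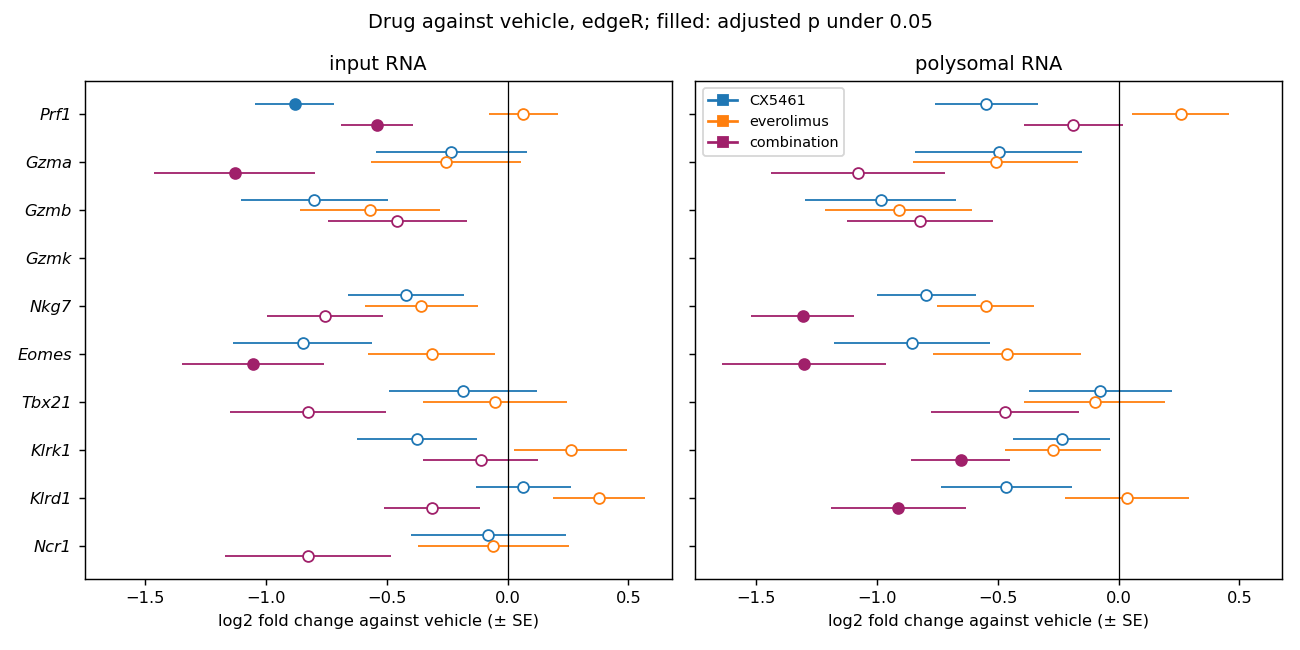
Log2 fold changes against vehicle for each member in input and polysomal RNA, as edgeR estimates ± SE, for CX5461, everolimus and the combination; filled points have an adjusted p under 0.05. Combination estimates lie below 0 for all members tested in both fractions.

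In polysomal RNA, Nkg7, Eomes, Klrd1 and Klrk1 were lower with the combination. Nkg7 was at 1.99, 2.49 and 3.14 CPM (lowest, median, highest) in vehicle mice, 1.08, 1.45 and 1.86 with CX5461, 1.06, 1.59 and 2.33 with everolimus and 0.678, 1.00 and 1.35 with the combination. All vehicle mice were above all CX5461 and all combination mice, and everolimus mice overlapped vehicle mice. Nkg7 fell 2.48-fold with the combination (-1.31 ± 0.21, adjusted p = 0.00203). With CX5461 its difference was -0.80 ± 0.21, adjusted p = 0.0623, which passed with DESeq2 (adjusted p = 0.0247) and with the compared groups alone (0.0407).

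Eomes was at 0.562, 0.939 and 1.23 CPM in vehicle polysomes, 0.282, 0.500 and 0.679 with CX5461, 0.475, 0.614 and 0.942 with everolimus and 0.125, 0.306 and 0.835 with the combination. It fell 2.46-fold with the combination (-1.30 ± 0.34, adjusted p = 0.0242), although 1 combination mouse lay within the vehicle range. Klrd1 was at 0.946, 1.29 and 1.51 CPM in vehicle mice, 0.552, 0.917 and 1.21 with CX5461, 0.613, 1.36 and 1.98 with everolimus and 0.315, 0.629 and 1.00 with the combination. The everolimus mice spanned the widest range and the combination mice were lowest. Klrd1 fell 1.88-fold with the combination (-0.91 ± 0.28, adjusted p = 0.0451). Klrk1 was at 1.33, 1.71 and 1.89 CPM in vehicle mice, 1.12, 1.44 and 1.61 with CX5461, 0.891, 1.27 and 1.99 with everolimus and 0.630, 1.05 and 1.41 with the combination, a 1.57-fold fall (-0.65 ± 0.20, adjusted p = 0.0493). Combination and vehicle ranges overlapped for both receptors, and both calls sat near the threshold. Without the Lars2- and Yam1-rich libraries the adjusted p was 0.115 for Klrk1 and 0.05 for Klrd1, and without everolimus mouse 3 it was 0.0506 for Klrd1. With no count filter both calls ended (adjusted p = 0.099 for Klrk1 and 0.0729 for Klrd1), and with DESeq2 that of Klrk1 ended (0.0513). Both calls also ended in a fit with mice blocked by replicate number.

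Perforin and the granzymes were not called in polysomes against vehicle. Prf1 was at 1.34, 1.64 and 2.36 CPM in vehicle mice, 0.843, 1.11 and 1.78 with CX5461, 1.30, 2.07 and 2.66 with everolimus and 1.25, 1.48 and 1.80 with the combination, with all ranges overlapping that of vehicle. Its differences were -0.55 ± 0.21, adjusted p = 0.201 for CX5461 and -0.19 ± 0.21, adjusted p = 0.561 for the combination. Gzma was at 0.967, 1.86 and 2.64 CPM in vehicle mice, 0.565, 1.37 and 1.84 with CX5461, 0.278, 1.51 and 2.01 with everolimus and 0.430, 0.820 and 1.64 with the combination. Its combination difference (-1.08 ± 0.36, adjusted p = 0.0593) passed with DESeq2 (adjusted p = 0.0315), with the compared groups alone (0.0491) and without the Lars2- and Yam1-rich libraries (0.0453). Gzmb was at 0.709, 1.06 and 1.57 CPM in vehicle mice, 0.207, 0.565 and 0.749 with CX5461, 0.334, 0.460 and 0.997 with everolimus and 0.315, 0.611 and 0.822 with the combination. The groups overlapped for both granzymes. No Gzmb difference passed: -0.98 ± 0.31, adjusted p = 0.115 for CX5461, -0.91 ± 0.30, adjusted p = 0.247 for everolimus and -0.82 ± 0.30, adjusted p = 0.0812 for the combination. Tbx21 medians ran from 0.380 CPM with the combination to 0.525 CPM with vehicle, and its combination difference was -0.47 ± 0.31, adjusted p = 0.295. Ncr1 and Gzmk did not pass the count filter in polysomes. Ncr1 medians ran from 0.230 CPM with the combination to 0.566 CPM with vehicle, and Gzmk had 0 to 5 reads per library.

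**Figure D3:**
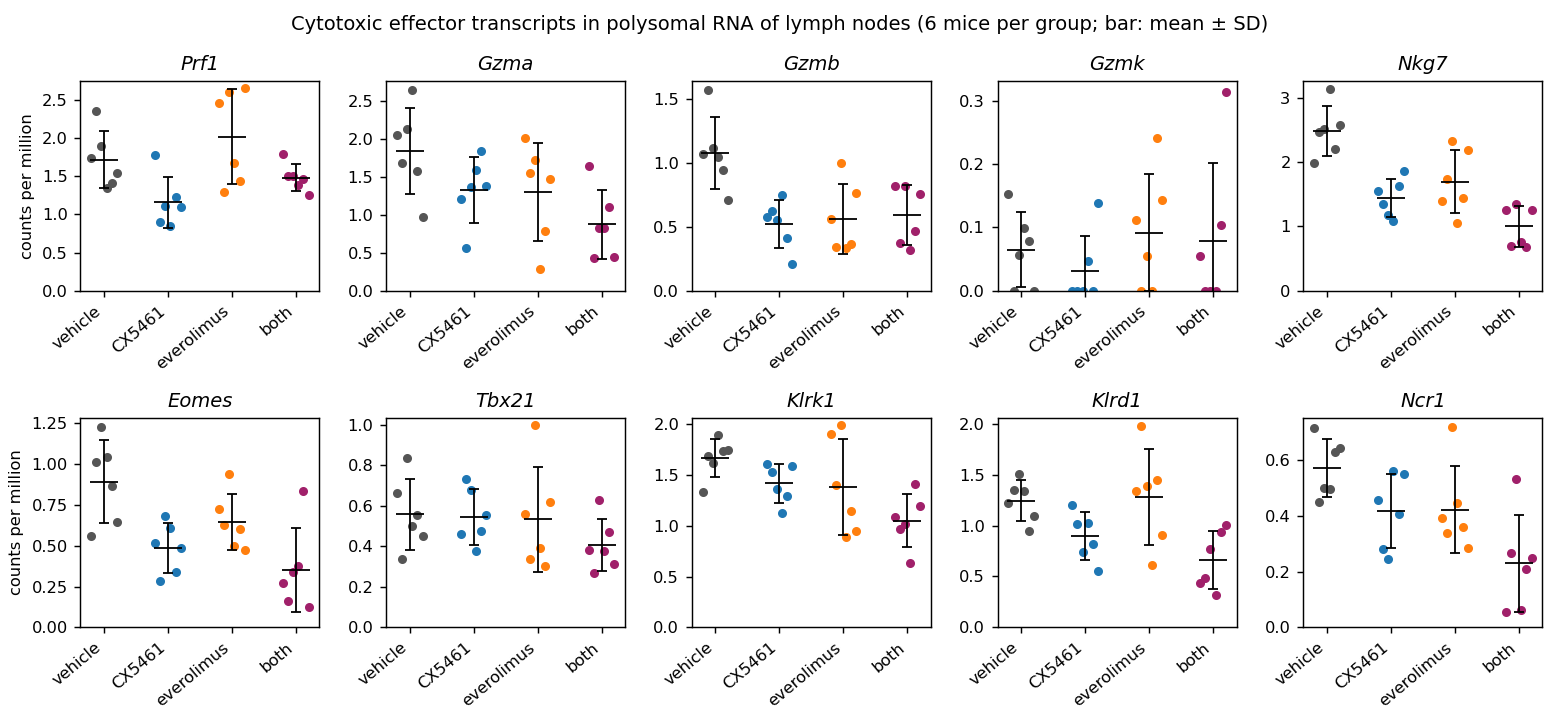
Polysomal levels of the members in CPM for each mouse of the 4 acute groups, drawn as for input. Nkg7 of combination mice (0.678 to 1.35 CPM) lies wholly below that of vehicle mice (1.99 to 3.14 CPM).

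In polysomes the combination called 4 of the 8 members tested (Nkg7, Eomes, Klrd1 and Klrk1), all lower, against 7.42% of all genes in either direction and 2.95% lower. With no count filter this count was 2 (Nkg7 and Eomes), as it was with mice blocked by replicate number. All 8 estimates were below 0, with a median of -0.87 beside 0.00 over all genes. With CX5461 edgeR called 0 of 8, against 0.878% of all genes; 4 had an unadjusted p under 0.05, DESeq2 called 1 (Nkg7), and the median was -0.52. With everolimus edgeR called 0 of 8, against 0.15% of all genes; 2 had an unadjusted p under 0.05 (Nkg7 and Gzmb), DESeq2 gave no member an adjusted p, and the median was -0.37.

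The drugs were then compared with each other. CX5461 and everolimus mice did not overlap for Prf1 in input RNA, and the CX5461 level was lower (-0.95 ± 0.16, adjusted p = 0.00524), the 1 member called of 9 against 0.473% of all genes. In polysomes of the same mice Prf1 was the 1 member called, of 8 (-0.81 ± 0.21, adjusted p = 0.0194). Over all genes 8.2% were called there, so this count is near the general share. Both calls were lost with the compared groups alone (adjusted p = 0.0628 in input and 0.0736 in polysomes), and the polysomal call also without everolimus mouse 3 (0.0603) and without the Lars2- and Yam1-rich libraries (0.0542).

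The combination against each single drug gave no call with edgeR. Against CX5461, 0 of 9 input members passed (0.866% of all genes; 2 with unadjusted p under 0.05, none with an adjusted p from DESeq2) and 0 of 8 polysomal members (23.6% of all genes; 1 with unadjusted p under 0.05, 0 with DESeq2). Against everolimus, 0 of 9 input members passed (0% of all genes; 6 with unadjusted p under 0.05, 0 with DESeq2) and 0 of 8 polysomal members (0.0195% of all genes; 4 with unadjusted p under 0.05, 0 with DESeq2). Prf1 was lower in the combination than with everolimus in input by estimate (-0.61 ± 0.15, adjusted p = 0.132), and these groups did not overlap. The interaction of the drugs, which asks whether the combination differs from the sum of the single effects on the log2 scale, called 0 of 9 in input and 0 of 8 in polysomes, against 0% and 0% of all genes. In input 2 members had an unadjusted p under 0.05, Klrd1 (-0.75 ± 0.28, adjusted p = 0.707) and Gzmb (0.91 ± 0.43, adjusted p = 0.742), and DESeq2 called 0. For Gzma the input interaction was -0.64 ± 0.46, adjusted p = 0.778. In polysomes 1 had an unadjusted p under 0.05, Gzmb (1.07 ± 0.45, adjusted p = 0.239), and DESeq2 gave no member an adjusted p.

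Polysomal and input RNA were compared within mice to ask whether ribosome loading changed. In vehicle mice Prf1 was lower in polysomes relative to other genes (-0.52 ± 0.18, adjusted p = 0.0131), the 1 call of 9 members tested, against 56.9% of all genes. The drugs' effect on the ratio of polysomal to input RNA (translational efficiency) was not called for any of the 9 members, nor for any gene (0% with each drug). Unadjusted p was under 0.05 for 0 members with CX5461, for Klrk1 with everolimus (-0.51 ± 0.24, adjusted p = 0.76) and for 3 with the combination: Nkg7 (-0.55 ± 0.23, adjusted p = 0.282), Klrd1 (-0.59 ± 0.29, adjusted p = 0.36) and Klrk1 (-0.52 ± 0.26, adjusted p = 0.38). DESeq2 was not run on this ratio. Calls that appear in 1 fraction only are therefore not shown to differ between fractions.

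Other genes of the killing pathway were followed as lists. Over all genes, the combination called 7.48% in input (4.17% lower) and 7.42% in polysomes (2.95% lower). CX5461 called 0.399% of all genes in input and 0.878% in polysomes, and everolimus 0.106% and 0.15%. A single call in a list is not read as a result about that list. Of 14 genes of the granule machinery 12 were tested. None was called in input, and in the polysomes of the combination Ctsw, a protease of cytotoxic cells (-0.92 ± 0.27, adjusted p = 0.0372), and Cst7, an inhibitor of granzyme-processing cathepsins (-0.91 ± 0.27, adjusted p = 0.0411), fell. The list's medians stayed between -0.13 (combination, input) and 0.03 (everolimus, polysomes). Of 23 other receptors of these cells, 12 were tested in input and 9 in polysomes. With the combination Cd96, an adhesion receptor of T and NK cells, fell in input (-0.88 ± 0.26, adjusted p = 0.0389) and in polysomes (-1.15 ± 0.28, adjusted p = 0.0196). Cd244, a receptor of the SLAM family, rose in input (0.76 ± 0.17, adjusted p = 0.0117) and in polysomes (0.81 ± 0.18, adjusted p = 0.0137). Cd244 was also present in the lines, at a median of 9.12 CPM in input against 6.36 CPM in vehicle nodes.

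All 13 adaptors and cytokine receptors were tested in input. Il2rb, the receptor chain that NK cells need for interleukin 15, fell with CX5461 (-0.65 ± 0.14, adjusted p = 0.0373) and with the combination (-0.73 ± 0.14, adjusted p = 0.00507) in input. In polysomes it also fell with CX5461 (-0.70 ± 0.14, adjusted p = 0.0245) and the combination (-0.67 ± 0.14, adjusted p = 0.0115). Sh2d1a, the adaptor SAP, fell in input with CX5461 (-1.52 ± 0.35, adjusted p = 0.034) and the combination (-1.61 ± 0.34, adjusted p = 0.00616). Il2rb had a median of 0 CPM in the lines and 9.97 CPM in vehicle nodes. Of 9 cytokines and chemokines 4 were tested. With the combination Ccl5, a chemokine stored by cytotoxic cells, fell in input (-0.75 ± 0.20, adjusted p = 0.0315) and polysomes (-0.69 ± 0.19, adjusted p = 0.0303), and the death ligand Tnfsf10 fell in polysomes (-0.54 ± 0.17, adjusted p = 0.047). Of 11 further transcription factors 9 were tested, and Id2 fell with the combination in input (-0.41 ± 0.10, adjusted p = 0.0221). Id2 and Tnfsf10 also passed the count filter in the relapse lines, so they are not particular to host cells. Which cells gave their reads in the nodes was not tested.

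Of 19 ligands and granzyme inhibitors of target cells 10 were tested. With the combination in input, H2-T23, which presents peptide to CD94 and NKG2A (-0.38 ± 0.09, adjusted p = 0.0166), Pvrl2, a nectin (-0.41 ± 0.11, adjusted p = 0.0308), and Serpinb9, a granzyme B inhibitor (-0.39 ± 0.12, adjusted p = 0.0455), fell. In polysomes H2-T23 fell with CX5461 (-0.45 ± 0.08, adjusted p = 0.0146) and with the combination (-0.27 ± 0.08, adjusted p = 0.0498). Everolimus called no gene of these 6 lists in either fraction with edgeR.

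T cell and interferon response genes were also called lower in these comparisons, and few genes of other host cell lists were called. Of 24 T cell genes 23 were tested. In input 4 were called lower with CX5461 (Lat, Zap70, Lck and Trbc2; list median -0.61), 12 with the combination (with Zap70, Trbc2, Lat and Skap1 first by adjusted p; median -0.68) and 0 with everolimus (median -0.20). Over all genes in input, 0.399% were called with CX5461 and 4.17% were called lower with the combination. In polysomes 4 T cell genes were called lower with CX5461 (0.878% of all genes called) and 14 with the combination (2.95% of all genes lower). Everolimus called 0 of them there (0.15% of all genes). The summed level of all 24 was 141 to 186 CPM in vehicle input, 102 to 124 with CX5461, 113 to 167 with everolimus and 106 to 149.8 with the combination, and 23 or 24 of the genes had reads in every library. Over the 16 T cell genes under 0.5 CPM in the lines, a subset chosen after values were seen, the sums were 69.9 to 98.5, 45.8 to 59.5, 58.7 to 91.7 and 45.7 to 76.6 CPM, so CX5461 mice lay wholly below vehicle mice. The sum of the 10 members was 8.68 to 12.6 CPM with vehicle, 6.52 to 8.83 with CX5461, 7.91 to 10.7 with everolimus and 5.23 to 8.08 with the combination. The part of the T cell genes in the members' differences was not tested.

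Of 24 type I interferon response genes, 8 were called lower in input with CX5461 (median -0.66), against 0.399% of all genes called. The combination called 23 of the 24 lower (median -0.85), against 4.17% of all genes, and everolimus 0 of the 24 (median -0.32). Their summed level was 338 to 432 CPM in vehicle input and 190.5 to 303 CPM with the combination, with all 24 at above 0 in every library. Isg15 fell with the combination (-1.29 ± 0.20, adjusted p = 0.000987), and with CX5461 its difference was -0.58 ± 0.20, adjusted p = 0.274. Neutrophil genes gave 0 calls of 9, with input medians of 0.85 for CX5461 and 0.43 for the combination, and red blood cell genes 0 of 6, with 1.501 and 0.36. Macrophage genes gave 0 calls with CX5461 and everolimus in input and 1 lower with the combination (Fcgr1), and the 12 of them under 0.5 CPM in the lines summed to 545 to 639 CPM in vehicle input, 543 to 776 with CX5461 and 507 to 580 with the combination. The 8 dendritic cell genes gave 1 input call, Itgax, lower with the combination, and summed to 34.1 to 42.3 CPM in vehicle input and 30.9 to 36.9 with the combination. The 10 stromal and endothelial genes gave 0 calls in input. The 21 NK receptors under 0.5 CPM in the lines summed to 10.7 to 13.5 CPM in vehicle input, 7.53 to 11.6 with CX5461 and 6.36 to 12.9 with the combination, with overlap. In polysomes these receptors summed to 11.9 to 14.5 CPM with vehicle, 7.68 to 13.3 with CX5461 and 7.42 to 11.5 with the combination. For these 21 receptors in polysomes the combination mice lay wholly below vehicle mice, and CX5461 mice overlapped them. Like the macrophage subset, the 21 were chosen after values were seen. They leave out Cd244, which was called higher with the combination in both fractions. The 10 B cell genes gave 0 calls in input, with medians from -0.04 to 0.02. What part these genes have in the members' differences was not tested.

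**Figure D4:**
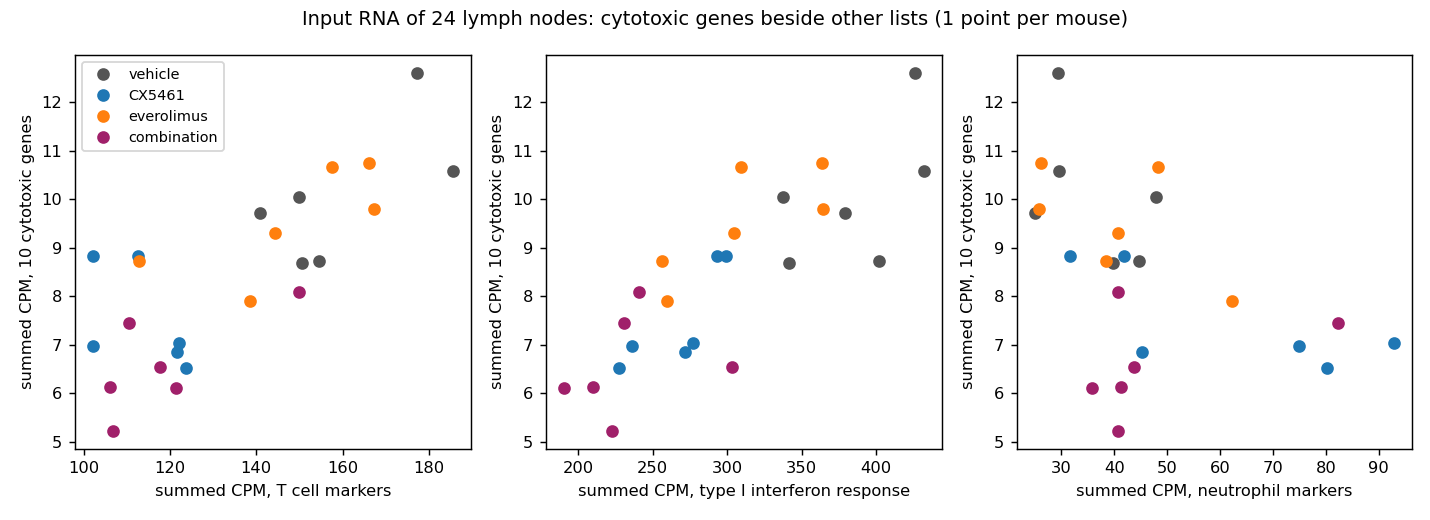
Summed input level of the 10 members (CPM) against the summed CPM of T cell markers, interferon response genes and neutrophil markers, 1 point per mouse for the 24 mice, coloured by treatment. Vehicle mice sit at 8.68 to 12.6 CPM for the members and combination mice at 5.23 to 8.08 CPM, without overlap.

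Correlations between single members from mouse to mouse were low. Counting error is large for these genes and lowers such correlations, so low values cannot show how far the members vary together. Over the 24 input mice, with treatment means removed, 26 of 36 pairs among the 9 tested members had a positive Pearson r, with a median of 0.13 and a range from -0.36 to 0.55; all points share libraries and depth. The genes most like the members' mean, among 10848 ranked, were Mycbp (r 0.72), Usp18 (0.71), Isg15 (0.71), Rmi2 (0.68) and Mipep (0.67). The largest r of so many genes over 24 mice can be high by chance, which was not tested. Of the 15 lists compared with the members' mean over the same mice, the 4 cytokines and chemokines tested had r = 0.65 and the interferon list 0.64. NK receptors had 0.50, dendritic cell genes 0.45, T cell genes 0.34 and granule machinery 0.14. B cell genes had -0.65, neutrophil genes -0.54, stromal genes -0.43 and macrophage genes -0.41. Without the 2 mice farthest from the median, r was 0.64 for cytokines, 0.63 for interferon genes, 0.38 for NK receptors, 0.22 for T cell genes and -0.50 for B cell genes.

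The relapse lines were used as a check for levels without host cells. They are of another clone, were cultured, and were normalized apart from the nodes, so levels are set side by side with no test. No member reached a median of 0.5 CPM in the input of the 12 lines, and 0 of 10 passed the count filter there. Prf1 was the most regular, with reads in all 12 lines: 2, 4 and 14 reads in naive lines 6, 33 and 38, 3, 5 and 1 in CX5461 lines 14, 20 and 39, 6, 6 and 3 in everolimus lines 4, 12 and 26, and 10, 11 and 11 in combination lines 8, 9 and 31. Its input level in lines was 0.0415 to 0.617 CPM, and to 0.586 without naive line 38, below the lowest vehicle node.

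Naive line 38 stood apart in input. It held 13 reads of Eomes, 11 of Klrk1 and 14 of Prf1, beside 5 of Cd3e, 8 of Cd4 and 13 of Cd8a. CX5461 line 39 held 5 reads of Eomes and 4 of Klrk1 in input, with 0 of Cd3e, 4 of Cd4 and 1 of Cd8a. In polysomes of line 38, Eomes had 1 read and Prf1 8. In polysomal RNA only Prf1 passed the filter, and it was called in none of the 3 comparisons with naive lines: 0.65 ± 0.65, adjusted p = 0.46 for CX5461 lines (19.5% of all genes called), -1.17 ± 0.76, adjusted p = 0.781 for everolimus lines (0.115%) and 0.56 ± 0.66, adjusted p = 0.672 for combination lines (10%). None of these had an unadjusted p under 0.05, and DESeq2 called 0. The labels do not say whether lines of a group came from separate mice.

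**Figure D5:**
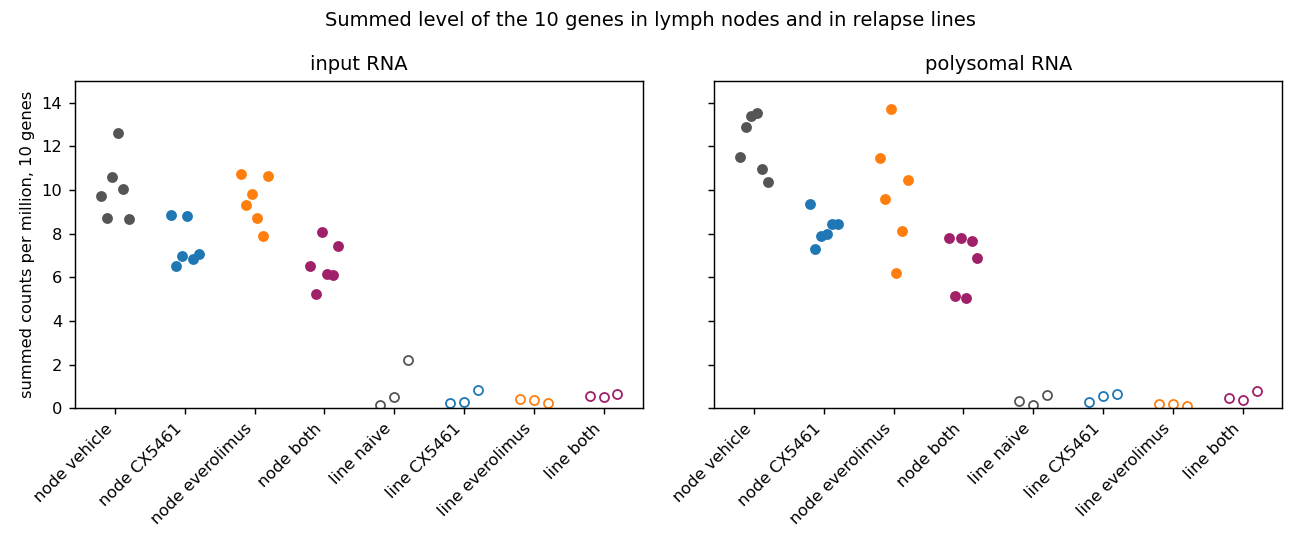
Summed CPM of the 10 members in input and polysomal RNA, 1 point per mouse (filled, nodes) or line (open), by treatment, from tables normalized separately. The lines sit between 0.118 and 0.830 CPM except naive line 38 in input at 2.20 CPM, and the vehicle nodes at 8.68 to 12.6 CPM in input.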

How the data were processed

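RNA was ribodepleted and sequenced as single reads of 50 bases. The authors deposited raw counts per gene symbol in 4 tables; TopHat2, HTSeq and the build GRCm38 come from the submitters' processing notes, and versions, annotation and strand setting are not given in the sources used here. Libraries were grouped by treatment label; the labels number samples without stating how each was kept separate, so p-values measure the spread between these samples. Counts were not changed, and CPM was computed from these counts with TMM library sizes. The main test was edgeR 4.0.16 (R 4.3.3, limma 3.58.1), quasi-likelihood, after filterByExpr, fitted over all groups of a table, with Benjamini-Hochberg adjustment over all genes tested and a threshold of 0.05. Translational efficiency was tested as the interaction of RNA fraction and drug over the 48 acute libraries. Errors of log2 fold changes are standard errors. Rows naming no gene (5.79% to 26.0% of acute counts) were left out. Alternatives were DESeq2 1.42.0, RLE size factors, no filter, compared groups alone, a replicate block, and fits without doubted libraries or single lines. The code was tested on simulated data. The members and lists were chosen with earlier results of these data known. All 10 members are named, and of each list up to 4 called genes with the smallest adjusted p per comparison, the defining markers and the 5 most alike genes; lines 38 and 39 were singled out after values were seen. Reads carry no molecular identifiers, so PCR copies and separate molecules cannot be told apart in the counts.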

Additional observations from a re-analysis of the deposited data

Results flagged for a closer look

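A single mouse stood apart from the other 5 of its group in 4 of the 80 sets of member levels examined, by Dixon's ratio (critical value 0.625 for 6 samples); chance gives about 1 in 20. Eomes in polysomes of combination mouse 5 was at 0.835 CPM (16 reads), the others at 0.125 to 0.378. Gzmk in polysomes was at 0.1381 CPM in CX5461 mouse 6 (2 reads; others 0 to 0.0468) and at 0.3135 CPM in combination mouse 6 (5 reads; others 0 to 0.104). Ncr1 in polysomes of everolimus mouse 3 was at 0.7202 CPM (13 reads), the others at 0.285 to 0.446.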

How the results depend on the processing

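Across all alternatives, 181 counts of called members stayed within 1.5 times their main value and 14 did not. In most comparisons the main count was 0, and a count that stays at 0 says little about the calls. Of single members 601 kept direction and side of the threshold, 19 lost and 9 gained the call, and 5 turned direction. The count with CX5461 in input went from 1 to 0 with the compared groups alone and without the Gm26870- and Gm10800-rich libraries. With the combination in input it went from 3 to 1 with no count filter and to 0 with the compared groups alone, where 6 of the 9 were tested. With CX5461 in polysomes it went from 0 to 1 with DESeq2 and with the compared groups alone. With the combination in polysomes it went from 4 to 2 with no count filter and to 2 with the replicate block, where Klrk1 (adjusted p = 0.06) and Klrd1 (0.0623) were not called. For CX5461 against everolimus it went from 1 to 0 with DESeq2 (which gave no member an adjusted p) and with the compared groups alone in both fractions, and in polysomes also to 0 without the Lars2- and Yam1-rich libraries and without everolimus mouse 3. The estimates that turned were near 0: Tbx21 with everolimus in input (0.0026 without everolimus mouse 3), Klrd1 with everolimus in polysomes (-0.013 with the replicate block, -0.081 without the Lars2- and Yam1-rich libraries, -0.0012 without vehicle mouse 6 and combination mouse 3) and Tbx21 in vehicle polysomes against input (0.14 without mice with a rich library). Vehicle mouse 6 had the lowest summed input level of the members among vehicle mice (8.68 CPM) and combination mouse 3 the highest among combination mice (8.08 CPM), so calls gained without them carry no weight. The cause was not tested. Leaving out each line in turn gave 0 called members in every relapse comparison (range 0 to 0). With all lines, 0 members were tested in relapse input and 1 (Prf1) in relapse polysomal RNA, so these counts had little room to change. Mice with the same number did not deviate together (mean r 0.01 in input and -0.03 in polysomes), so the replicate block pairs mice by number only; relapse lines share no numbers. Low read numbers per library limit the precision for every member.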
